A study of Mus musculus with 8 samples.

Results

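The gene set described here holds 33 genes of glycolysis and of the response to low oxygen. They were taken by name from the rows of a single-cell count matrix of 31053 genes, without using their values. The study measured mouse liver cells that had been sorted to enrich endothelium, 1 library per mouse. In 4 libraries (control 1 to 4) the mice had eaten a chow control diet, and in the other 4 (HFHC 1 to 4) a high fat, high cholesterol diet, for 20 to 32 weeks. Per the labels all mice were male C57BL/6 animals of 6 to 8 weeks, an age given beside a feeding period longer than itself. Sample titles name the HFHC diet as high calorie where the design text has cholesterol, and that of HFHC 4 numbers its animal differently. Before sorting, dead cells were removed and the remainder was stained for CD45, CD31, CD146 and PDPN.

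Glycolysis splits glucose into pyruvate in a chain of enzymes that begins with hexokinase and ends with pyruvate kinase. Lactate dehydrogenase then turns pyruvate into lactate, and monocarboxylate transporters carry lactate across the membrane. When oxygen falls, the alpha subunits of the hypoxia-inducible factors (HIF), Hif1a and Epas1 (HIF-2 alpha), escape degradation and raise the transcription of many of these genes and of targets such as Bnip3, Ankrd37 and Egln3. The liver lobule runs from well-oxygenated periportal to poorly oxygenated pericentral blood, and hepatocytes can run the pathway backwards to make glucose.

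Counts of unique molecular identifiers (UMIs, each standing for 1 captured transcript) were summed per library and cell class and scaled to the total UMIs of that sum (CPM). A class name such as LSEC-like (liver sinusoidal endothelial cell, the lining of the liver capillaries) means that markers of that class led in a cell, and no member is among the markers. Of 3416 cells, 3192 were kept, in libraries of 47 to 875 cells and 170448 to 2309209 UMIs, and 155 of them took no class. Sums needed at least 10 cells. LSEC-like sums came from control 1 (21 cells), control 2 (56), control 3 (552), control 4 (38) and HFHC 4 (547), and hepatocyte-like sums from control 2 (670) and HFHC 3 (642). The leading genes of the hepatocyte-like barcodes were Fabp1, Car3, Ass1 and Bhmt, with none of the 10 class markers among the first 10. The 10 hepatocyte markers gave 1.19 to 2.41% of UMIs in hepatocyte-like sums and 0.00442 to 0.300% in the 19 other sums. Transcripts of hepatocytes were thus counted in other classes, and their part in the values below was not tested. Cell barcodes recurred between libraries, 33 to 65 per pair among control 1 and 2 and HFHC 1 to 3, and at most 4 in the other pairs. Each was kept only where it had most UMIs. In control 4, labelled male, 67 of 94 cells had a UMI of Xist, which is transcribed from the inactive X chromosome, against 0 in the other libraries. Without control 4, 18 members passed the test between classes described below, against 17 with it, and the number that passed against LSEC-like cells was the same in each of the 6 classes tested. No member passed between diets with or without it. Lymphatic endothelial-like cells are described from control 4 alone.

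Since HIF binds DNA with the core letters ACGTG, the stretch upstream of each start site was searched for it. RefSeq (GRCm38.p6, the assembly called mm10) gave promoters for 29 of the 33 members. ACGTG or its reverse complement CACGT lay in the 250 bases before a start of 17 of the 29 (58.6%), against 18.5% of all 27025 genes in the same table. A gene counted here if any of its promoters had a match. Per promoter, 20 of the 42 of the members had a match, against 16.6% of all 32851. The letters CACGTG hold both forms at once and were counted on both strands, and 6.02% of all promoters had them. The members include genes picked as HIF targets, and a match is a run of letters, not a measured site. 4 members that the results below turn on are shown, each 5′ to 3′ on the gene's strand with every match in capitals.
Ldha (chr7:46845649-46845784, + strand, 155 to 20 bases before the start): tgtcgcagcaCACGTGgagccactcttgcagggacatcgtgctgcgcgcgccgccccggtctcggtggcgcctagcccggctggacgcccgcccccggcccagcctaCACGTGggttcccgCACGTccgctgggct
Bnip3 (chr7:138909582-138909641, − strand, 135 to 76 bases before the start): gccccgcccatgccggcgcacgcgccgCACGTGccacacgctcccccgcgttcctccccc
Ankrd37 (chr8:46000041-46000100, − strand, 250 to 191 bases before the start): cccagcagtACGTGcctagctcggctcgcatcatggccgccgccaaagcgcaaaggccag
Pgk1 (chrX:106186932-106186991, + strand, 168 to 109 bases before the start): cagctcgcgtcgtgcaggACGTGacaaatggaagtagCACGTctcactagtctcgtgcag
By this count Ldha had 5 matches in its 250 bases, 4 of them from a pair of CACGTG runs, and Bnip3, Ankrd37 and Pgk1 had 2 each. Ldha has a second promoter (chr7:46846832-46847131) with 0 matches, and the one with most is shown. The bases after the shown Ldha start were not found in its annotated transcripts, while those of Bnip3, Ankrd37 and Pgk1 were. The second match of Ankrd37 lies beyond the first annotated exon base of the stretch and is not shown. No match lay in the same window of Gapdh, Tpi1, Eno1, Gpi1, Pklr or Ldhb.

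Mean levels over library sums showed that no single class was highest for all members. Hepatocyte-like barcodes were highest for 9 of the 33, basophil or mast-like and vascular endothelial-like cells for 6 each, cholangiocyte-like cells for 4, neutrophil-like cells for 3, and mesothelial-like and lymphatic endothelial-like cells for 2 each. Monocyte or macrophage-like cells were highest for 1, and LSEC-like, B-like and T or NK-like cells for none. T or NK-like, monocyte or macrophage-like and neutrophil-like cells came from HFHC 3 alone and lymphatic endothelial-like cells from control 4 alone, so their levels have no spread. The neutrophil-like sum held only 16533 UMIs. Its highest ranks rest on 2 UMIs of Slc2a3, 2 of Pfkfb4 and 5 of Slc16a3.

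**Figure D1:**
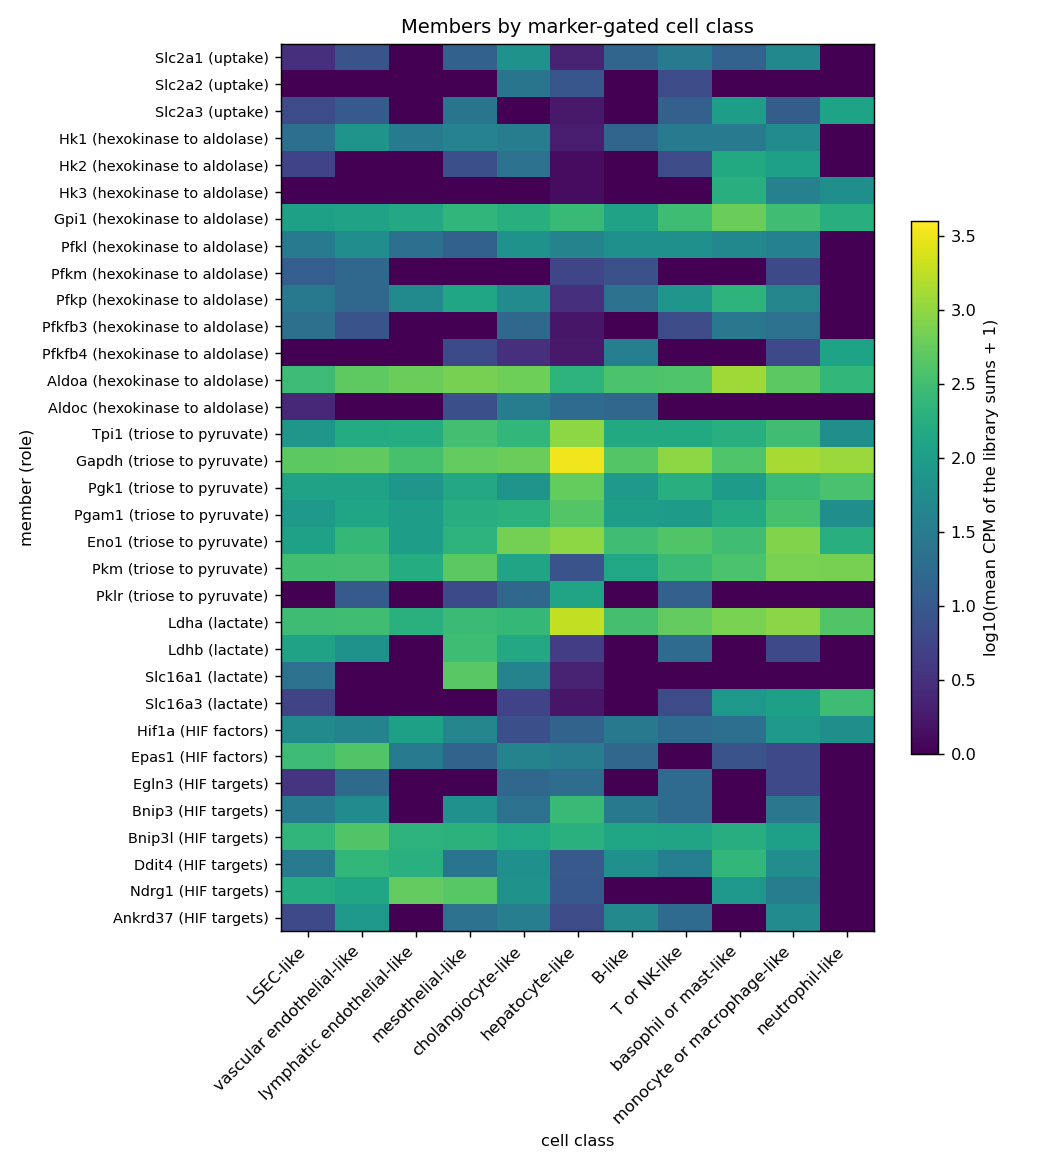
Mean level of each member (rows, with its role) in each cell class (columns) as log10 of CPM + 1, averaged over the library sums of the class. Gapdh and Ldha are brightest in hepatocyte-like barcodes, Aldoa in basophil or mast-like cells and Slc16a1 in mesothelial-like cells.

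Glucose transporters were sparse. Slc2a1 (GLUT1, the widespread basal carrier) had 67 UMIs in all kept cells, Slc2a2 (GLUT2, the carrier of hepatocytes) 60 and Slc2a3 (GLUT3, a high-affinity carrier) 120. Slc2a1 stood at 71.3 and 69.7 CPM in cholangiocyte-like cells of HFHC 1 and HFHC 2, and at 1.85 and 0.626 CPM in hepatocyte-like barcodes of control 2 and HFHC 3. Slc2a2 was at 8.31 and 8.14 CPM in the same hepatocyte-like sums, with 9 UMIs (39.2 CPM) in cholangiocyte-like cells of HFHC 2, the highest level among the summed classes, and 1 UMI (8.91 CPM) in those of HFHC 1. It was at 0 in all 5 LSEC-like sums, so that it was at least 5.48-fold higher in hepatocyte-like barcodes (taking 3 counts over the LSEC-like sums as the limit of a 0). For Slc2a3 the basophil or mast-like sums held 99.0 CPM in control 2 and 103 CPM in HFHC 3, and the neutrophil-like sum 121 CPM, from 2 UMIs. Control 2 held 72 of the 120 Slc2a3 UMIs, most of them in cells outside the summed classes. In LSEC-like cells the 3 carriers were at 0 to 18.9 CPM.

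Hexokinases, which trap glucose in the cell by phosphorylation, differed in kind between classes. Hk3 had 8 and 11 UMIs in basophil or mast-like cells of control 2 and HFHC 3 (198 and 161 CPM) and none in any LSEC-like sum, at least 117-fold higher by the same limit. Hk2 was at 198 and 103 CPM in those basophil or mast-like sums, at 106 CPM in monocyte or macrophage-like cells and at 0 to 16.2 CPM in LSEC-like cells. Hk1 held 18 of 20 UMIs of Hk1, Hk2 and Hk3 (90.0%, Wilson 95% interval 69.9 to 97.2) in LSEC-like cells of control 3 and 28 of 31 (90.3%, 75.1 to 96.7) in those of HFHC 4. In hepatocyte-like barcodes Hk1 had 2 UMIs and Hk2 and Hk3 none in control 2, and Hk2 and Hk3 had 1 UMI each and Hk1 none in HFHC 3. Intervals of this kind cover counting error only.

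Gpi1, which converts glucose 6-phosphate to fructose 6-phosphate, was at 619 and 601 CPM in basophil or mast-like cells of control 2 and HFHC 3. In LSEC-like cells its level was 132, 170, 92.0 and 38.6 CPM in controls 1 to 4 and 115 CPM in HFHC 4. Among the subunits of phosphofructokinase, the committed step, Pfkp (the platelet type) was at 272 and 147 CPM in basophil or mast-like cells and at 197 and 64.7 CPM in mesothelial-like cells of control 1 and HFHC 1, against 12.6 to 38.6 CPM in LSEC-like cells. Pfkl, the liver type, held 77.8% (65.1 to 86.8) and 94.4% (86.4 to 97.8) of phosphofructokinase UMIs in hepatocyte-like barcodes of control 2 and HFHC 3, and 15.4% (4.33 to 42.2) and 23.1% (8.18 to 50.3) in basophil or mast-like cells of the same libraries. Pfkm, the muscle type, had 30 UMIs in all, and the regulators Pfkfb3 and Pfkfb4, which make the activator fructose 2,6-bisphosphate, had 61 and 27.

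Aldoa, the widespread aldolase, which splits the 6-carbon sugar, stood at 1436 and 1041 CPM in basophil or mast-like cells. In mesothelial-like cells it was at 697 and 733 CPM, in cholangiocyte-like cells at 562 and 710 CPM and in LSEC-like cells at 244 to 331 CPM. Hepatocyte-like barcodes had 177 and 248 CPM, which overlaps the LSEC-like range. Aldoc, the brain type, had 68 UMIs and reached 35.7 and 30.5 CPM in cholangiocyte-like cells.

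The enzymes from triose phosphate to phosphoenolpyruvate were highest in hepatocyte-like barcodes. Gapdh (glyceraldehyde 3-phosphate dehydrogenase) was at 2856 CPM in control 2 and 3781 CPM in HFHC 3. In LSEC-like cells it was at 397, 573, 417 and 566 CPM in controls 1 to 4 and at 536 CPM in HFHC 4, so the classes did not overlap. Tpi1 (triose phosphate isomerase) had 931 and 1036 CPM in hepatocyte-like barcodes against 56.7, 105, 66.8, 90.0 and 84.7 CPM in the same LSEC-like sums. Eno1 (enolase) had 847 and 1096 CPM against 227, 129, 87.0, 38.6 and 95.2 CPM, and was also high in cholangiocyte-like cells, at 624 and 789 CPM, and in monocyte or macrophage-like cells, at 823 CPM. Pgk1 (phosphoglycerate kinase) and Pgam1 (phosphoglycerate mutase) reached 505 to 608 CPM and 378 to 494 CPM in hepatocyte-like barcodes and no more than 162 CPM and 96.9 CPM in LSEC-like cells.

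The last enzyme went the other way. Pkm (pyruvate kinase of most tissues) had 12 UMIs (11.1 CPM) in hepatocyte-like barcodes of control 2 and 6 UMIs (3.76 CPM) in HFHC 3. LSEC-like cells had 397, 307, 227 and 386 CPM in controls 1 to 4 and 284 CPM in HFHC 4, and monocyte or macrophage-like cells had 744 CPM. Pklr (pyruvate kinase of liver and red cells) had 114 and 228 UMIs in the hepatocyte-like sums (105 and 143 CPM) and none in the 5 LSEC-like sums, at least 85.2-fold higher. Pkm thus held 9.52% (5.53 to 15.9) and 2.56% (1.18 to 5.48) of pyruvate kinase UMIs in hepatocyte-like barcodes, and all of 180 and 271 in LSEC-like cells of control 3 and HFHC 4. Shares count captured transcripts, are not divided by length and are compared between classes only.

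Lactate dehydrogenase showed a like division. Ldha, the subunit that favours lactate formation, was at 1229 and 2434 CPM in hepatocyte-like barcodes and at 266 to 354 CPM in LSEC-like cells. Ldhb, the subunit that favours lactate use, held 30.1% (25.2 to 35.5) of lactate dehydrogenase UMIs in LSEC-like cells of control 3 and 27.6% (23.8 to 31.8) in those of HFHC 4. In hepatocyte-like barcodes it held 7 of 1338 UMIs in control 2 and 1 of 3888 in HFHC 3. Lymphatic endothelial-like cells of control 4 had 0 Ldhb among 19 UMIs, while LSEC-like cells of that library had 10 of 31. Mesothelial-like cells of control 1 had 31 of 50 (62.0%, 48.2 to 74.1), those of HFHC 1 18 of 47 (38.3%, 25.8 to 52.6), and all B-like and basophil or mast-like sums had 0.

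Lactate carriers were divided between classes. Slc16a1 (MCT1, a carrier that works in both directions) was at 421 and 529 CPM in mesothelial-like cells of control 1 and HFHC 1, and at 0 to 56.7 CPM in LSEC-like cells. Slc16a3 (MCT4, an exporter of cells with high glycolysis) was at 111 CPM in monocyte or macrophage-like cells, where it held all 21 carrier UMIs, and at 302 CPM in neutrophil-like cells, from 5 UMIs.

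Of the HIF factors, Epas1 was highest in LSEC-like and vascular endothelial-like cells and as low in lymphatic endothelial-like cells as in hepatocyte-like barcodes. It was at 359, 477, 222 and 154 CPM in LSEC-like cells of controls 1 to 4 and at 255 CPM in HFHC 4, and at 504 and 324 CPM in vascular endothelial-like cells of control 2 and HFHC 4. Hepatocyte-like barcodes had 34.2 and 28.8 CPM. In lymphatic endothelial-like cells Epas1 had 3 UMIs (29.9 CPM) and Hif1a 11 (110 CPM), so that Epas1 held 21.4% (7.57 to 47.6) of their sum. That share was 75.0% (50.5 to 89.8) in LSEC-like cells of the same library, 80.0 to 90.5% in those of the other libraries, and 5.88% (1.05 to 27.0) in monocyte or macrophage-like cells. Hif1a was at 37.8 to 63.8 CPM in LSEC-like cells and at 84.4 CPM in monocyte or macrophage-like cells.

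**Figure D2:**
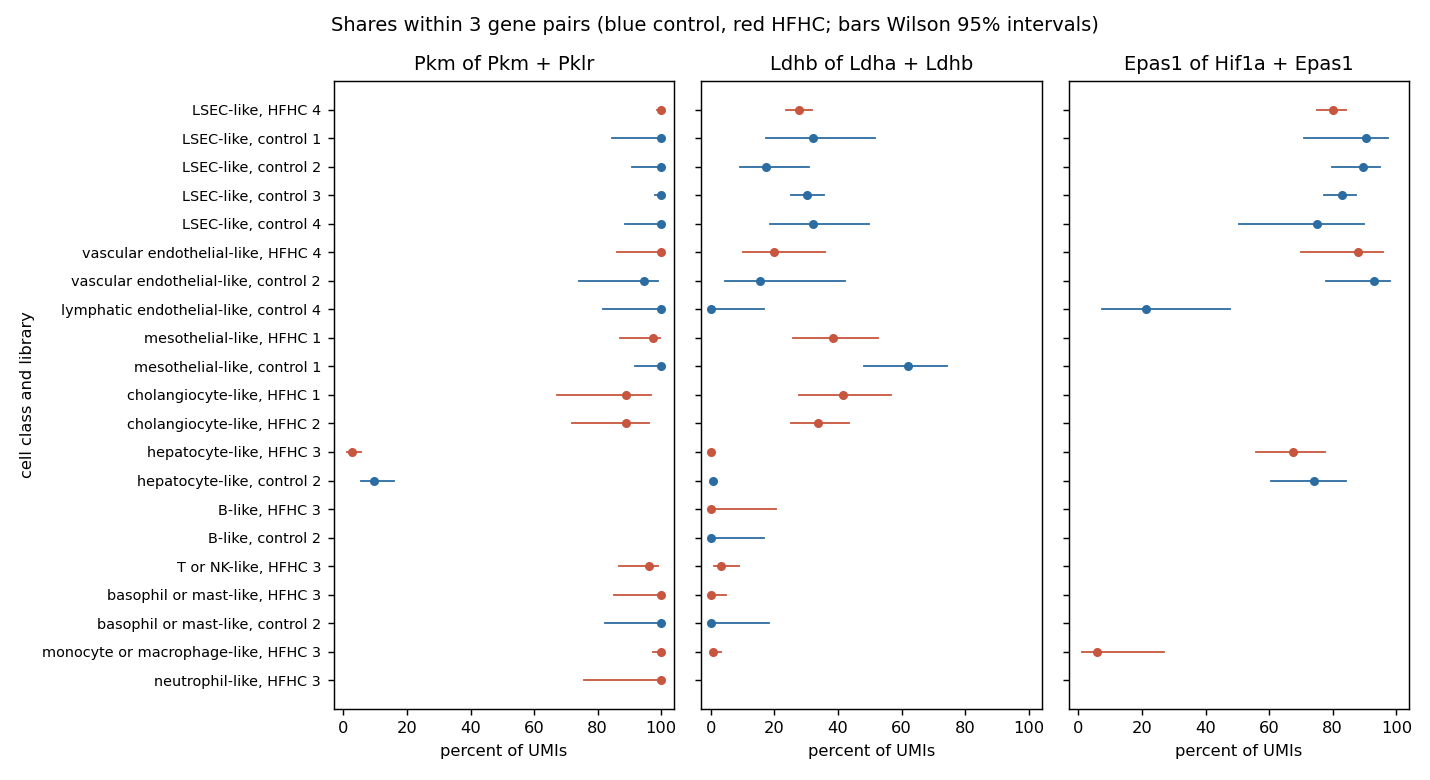
Percent of UMIs held by Pkm, Ldhb and Epas1 within their gene pair (x axis) in each class and library (y axis) with at least 10 UMIs of the pair; blue points are control and red points HFHC libraries, bars are Wilson 95% intervals. Pkm is under 10% only in the 2 hepatocyte-like sums, and Epas1 is under 30% in lymphatic endothelial-like and monocyte or macrophage-like cells.

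HIF targets did not share a class. Bnip3, a receptor for the removal of mitochondria, was at 301 and 256 CPM in hepatocyte-like barcodes and at 0 to 48.5 CPM in LSEC-like cells. Its relative Bnip3l was at 392 and 457 CPM in vascular endothelial-like and at 167 to 322 CPM in LSEC-like cells, and was found in all classes but the neutrophil-like. Ndrg1, a stress-response gene, was at 538 CPM in lymphatic endothelial-like and 486 and 442 CPM in mesothelial-like cells. Within LSEC-like cells Ndrg1 ran from 56.7 CPM in control 1 to 373 CPM in control 4. Ddit4 (REDD1, an inhibitor of mTORC1) was at 224 and 265 CPM in vascular endothelial-like, 223 and 264 CPM in basophil or mast-like and 189 CPM in lymphatic endothelial-like cells, against 12.6 to 64.6 CPM in LSEC-like cells. Egln3, an oxygen sensor that marks HIF for degradation, had 84 UMIs and Ankrd37 101.

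Differences between classes were tested with edgeR's quasi-likelihood test on 17 sums of 8 libraries, with the library as a term. Of the 33 members, 18 had enough counts to be tested. Of these, 17 differed between classes at an adjusted p under 0.05 (edgeR), where 84.5% of the 2927 genes tested did so. The share of members was thus near that of all genes. A gene could reach the count filter through the sums of a single class. Hk3 did so through basophil or mast-like cells, Slc16a1 through mesothelial-like cells and Bnip3 through hepatocyte-like barcodes. Without HFHC 3, which takes the hepatocyte-like, B-like and basophil or mast-like classes out of the fit, 6 of 15 passed. The count over all genes moved as well, from 735 to 4020 over the settings run, against 2472 in the main fit. Replicates are separate mice per the labels. The fit left 3 residual degrees of freedom, and the robust quasi-likelihood test pools the spread over genes. The p-values thus rest largely on that pooled spread, not on a spread between mice measured for each gene.

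Against LSEC-like cells, hepatocyte-like barcodes differed for 12 of the 18 tested members, where 61.6% of all genes differed. 8 were higher, against 30.2% of all genes, and 4 lower, against 31.4%. The log2 fold changes of the higher ones were 4.02 ± 0.48 (SE) for Tpi1, 3.57 ± 0.46 for Eno1, 3.07 ± 0.41 for Gapdh, 2.99 ± 0.52 for Bnip3, 2.93 ± 0.50 for Pgam1, 2.84 ± 0.42 for Ldha, 2.31 ± 0.47 for Pgk1 and 1.17 ± 0.47 for Gpi1. The lower ones were Pkm at −4.43 ± 0.52, Ndrg1 at −3.95 ± 0.63, Epas1 at −3.08 ± 0.42 and Ldhb at −2.47 ± 0.86. Bnip3 reached the count filter only through the hepatocyte-like sums, where it is high, so its call adds nothing to its levels. Adjusted p (edgeR) ran from 2.47e-16 for Pkm to 0.0213 for Gpi1. Library scaling by DESeq2's size factors moved the median of all genes from 0.03 to −0.20, and the call of Gpi1 was lost with it (log2 0.88, edgeR adjusted p 0.0946). That call was lost under 4 of 16 alternatives, the lowest value being 0.61 with classes from clusters (edgeR adjusted p 0.179), and the call of Ldhb was lost with no filter on low counts. Control 2 is the only library with both classes. Within it, for example, Tpi1 was at 931 against 105 CPM and Pkm at 11.1 against 307 CPM. Fbp1 (6.15 ± 0.60) and Pck1 (5.03 ± 0.60), enzymes of gluconeogenesis that are not members, were higher too. Of the other glycolysis and pyruvate genes 4 of 5 tested were higher and 1 lower, of the gluconeogenesis genes 2 of 2 were higher, and of the other hypoxia-induced genes 4 of 4.

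Basophil or mast-like cells differed from LSEC-like cells for 8 of 18 members, where 28.9% of all genes did. Only control 2 has sums of both classes, with 16 basophil or mast-like and 56 LSEC-like cells. 6 were higher, against 12.2% of all genes, and 2 lower, against 16.7%. The higher ones were Hk3, with the counts given above, Pfkp (log2 3.85 ± 1.06), Ddit4 (2.69 ± 0.83), Aldoa (2.41 ± 0.42), Gpi1 (1.95 ± 0.51) and Eno1 (1.45 ± 0.53). Hk1, Hk2, Pfkl and Pfkm had too few counts to be tested, so the calls do not place the higher levels at particular steps of glycolysis. Hk3 reached the count filter only through the basophil or mast-like sums, where it is high, so its call adds nothing to its counts. The lower ones were Epas1 (−5.21 ± 0.93, from 1 UMI in the 2 sums) and Bnip3, with 0 UMIs and at least 1.10-fold lower. Aldoa had the smallest adjusted p, 1.91e-07 (edgeR). Without a filter on low counts 3 of 33 passed, and without HFHC 4 5 of 18 did. The count over all genes ran from 537 to 1119 over the settings run. The calls of Eno1 and Bnip3 were lost under 6 of 16 alternatives each, that of Ddit4 under 3, that of Gpi1 under 2 and that of Hk3 under 1 of 14. The lowest values were 0.58 for Eno1 (at least 5 cells per sum), and 1.46 for Ddit4 and 1.08 for Gpi1 (classes from clusters). The calls of Eno1, Ddit4 and Bnip3 were among those lost without HFHC 4.

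Mesothelial-like cells differed for 4 of 18 members, where 12.7% of all genes did (6.18% higher and 6.56% lower). Ndrg1 (log2 3.18 ± 0.78), Slc16a1 (2.97 ± 1.02) and Tpi1 (2.50 ± 0.84) were higher and Epas1 (−3.66 ± 0.93) lower, with adjusted p (edgeR) of 9.09e-04, 0.0338, 0.0284 and 1.63e-03. Slc16a1 reached the count filter only through the mesothelial-like sums, where it is high, so its call adds nothing to its levels. Bsg, the chaperone that brings monocarboxylate transporters to the membrane and no member of the set, was higher by 2.94 ± 0.53. The contrast runs through control 1 alone, the only library with both classes, and none of the 4 calls was made when classes came from clusters. Tpi1 was lost under 4 of 14 alternatives, among them DESeq2 and leaving out HFHC 4 (log2 2.39), Slc16a1 under 3 of 13 and Epas1 under 2 of 14.

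**Figure D3:**
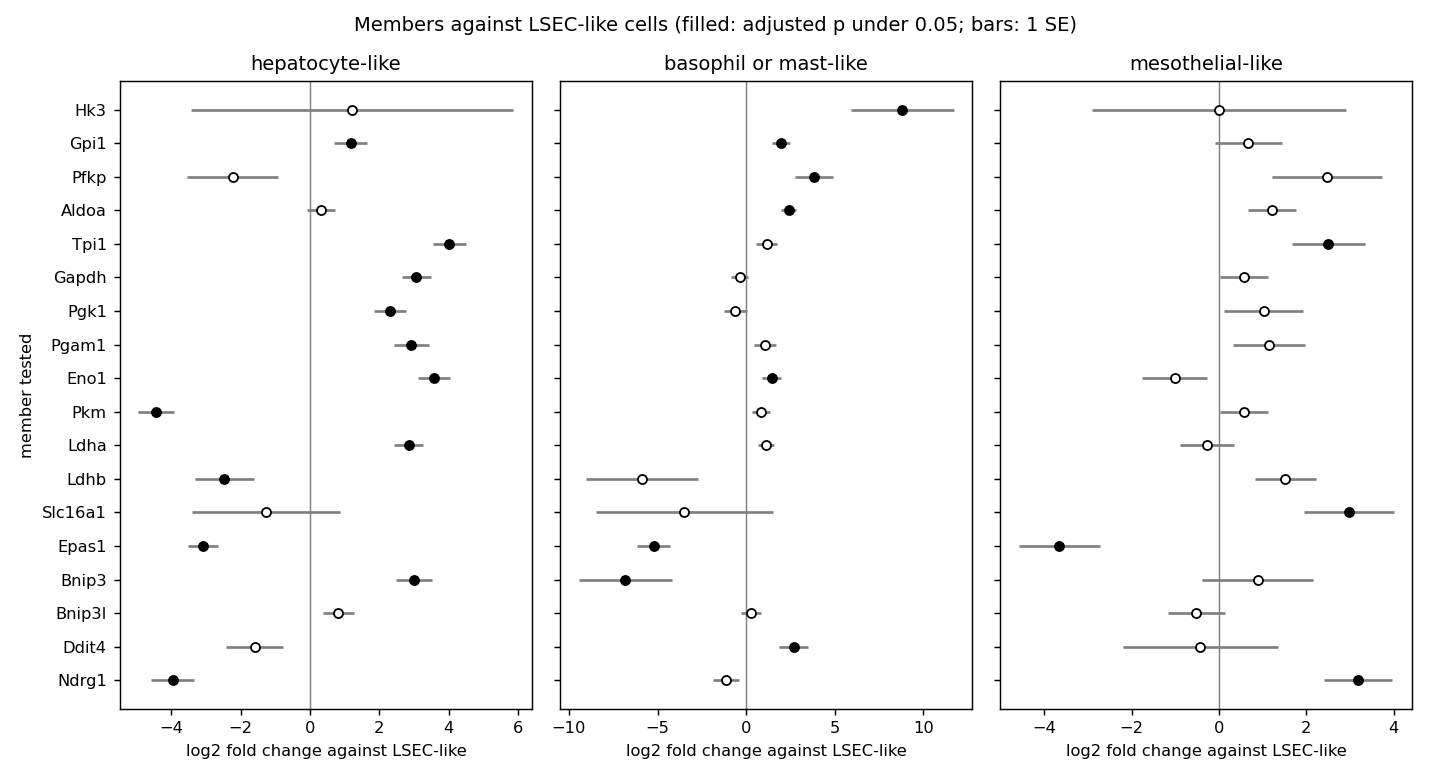
Log2 fold change against LSEC-like cells (x axis) of the 18 tested members (y axis) in hepatocyte-like, basophil or mast-like and mesothelial-like cells; filled points have an adjusted p under 0.05 and bars are 1 SE. Tpi1, Gapdh, Pgk1, Pgam1, Eno1 and Ldha lie right of 0 and Pkm left of it in hepatocyte-like barcodes. Fitted values of genes with 0 counts in a class, such as Ldhb in basophil or mast-like cells, depend on the fit and are no bound.

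B-like cells differed for 3 of 18 members, where 28.3% of all genes did. Only control 2 has sums of both B-like and LSEC-like cells. Eno1 was higher (log2 1.49 ± 0.52, edgeR adjusted p 0.0187), a call that ended under 6 alternatives, with log2 values of 0.54 to 1.40. Epas1 was lower (−5.25 ± 0.89, 1 UMI), and Ndrg1 had 0 UMIs, at least 5.26-fold lower. In vascular endothelial-like cells 1 of 18 members passed, where 6.97% of all genes did: Ddit4 was higher by 2.79 ± 0.62 (edgeR adjusted p 2.77e-04). With classes from clusters the value for Ddit4 was −0.56, and 40 of the 55 cells of that class lay within 0.2 score units of another class. Cholangiocyte-like cells gave 0 of 18 calls, where 3.59% of all genes passed, and 0 calls by DESeq2. At an unadjusted p under 0.05 (edgeR) there were 0 members, and 452 of 2927 genes. The cholangiocyte-like contrast has no library with both classes and runs only through the mesothelial-like sums of control 1 and HFHC 1. Without the library term 7 members passed, and the count over all genes ran from 21 to 1081 over the settings run.

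Lymphatic endothelial-like cells could be set only against LSEC-like cells of the same library, control 4, with no test. Aldoa was 2.57-fold (1.52 to 4.54) and Gpi1 3.87-fold (1.10 to 20.9) as high in the lymphatic cells, and Ddit4 had 19 UMIs against 1 (ratio 14.7, 2.34 to 611). Pkm was 0.44-fold (0.23 to 0.82) and Epas1 0.19-fold (0.035 to 0.72) as high.

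The diet was compared in LSEC-like cells, with 4 control libraries and HFHC 4. This describes that 1 HFHC library, since no spread among HFHC mice enters. Ldha was at 322, 307, 266 and 270 CPM in controls 1 to 4 and at 354 CPM in HFHC 4, above all controls. Pgk1 was at 75.7, 162, 99.6 and 103 CPM in the controls and at 149 CPM in HFHC 4, within their range. Hif1a was at 37.8, 56.5, 45.4 and 51.4 CPM in the controls and at 63.8 CPM in HFHC 4. Of the members, 13 could be tested, and 0 passed (edgeR), with 0 at an unadjusted p under 0.05 and 0 calls by DESeq2; of all 3323 genes 0.331% passed. The largest log2 differences were 0.53 ± 0.49 for Pgk1, 0.41 ± 0.44 for Ldha, 0.41 ± 0.50 for Ldhb and −0.33 ± 0.50 for Ndrg1, each with an adjusted p of 0.998. Those of Gpi1, Tpi1, Aldoa, Gapdh, Bnip3l and Pgam1 were 0.21 to 0.31, and those of Epas1, Eno1 and Pkm −0.12, −0.10 and −0.04. With classes from clusters, which drop control 1 and add a sum of HFHC 3, the differences were 1.62 for Pgam1, 1.39 for Gpi1, 1.26 for Pgk1, 1.20 for Tpi1, 1.08 for Gapdh and 1.07 for Ldha, and 0 members passed. The median over the 13 was 0.24 and over all genes −0.08. Hepatocyte markers made 0.0530, 0.127, 0.0170 and 0.0373% of LSEC-like UMIs in controls 1 to 4 and 0.0110% in HFHC 4, and their part in these values was not tested.

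Some sparse members were counted mainly in HFHC 4, and were chosen for mention after their values were seen. In LSEC-like cells Ankrd37 had 0, 0, 2 and 0 UMIs in controls 1 to 4 and 23 in HFHC 4 (24.1 CPM). Slc2a1 was not counted in any of the 4 controls and had 10 UMIs in HFHC 4, which is at least 3.65-fold higher (3 counts over the controls). Egln3 had 2 UMIs in the controls, both in control 3, and 10 in HFHC 4. Bnip3 was at 40.8 CPM in HFHC 4, within the controls (0 to 48.5 CPM). Controls 1, 2 and 4 held 52867, 123807 and 77746 UMIs in this class, so that a level of 24.1 CPM would be a few counts there, and only control 3 (793160 UMIs) has a depth like that of HFHC 4 (955761).

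Against control 3 alone, the ratio in HFHC 4 was 9.54 for Ankrd37 (exact conditional 95% interval 2.36 to 83.5), 4.15 for Egln3 (0.88 to 38.9), 2.31 for Bnip3 (1.23 to 4.61) and 2.03 for Pfkl (1.15 to 3.73). Bnip3 and Pfkl in HFHC 4 (40.8 and 46.0 CPM) lay within the range of the 4 controls, whose highest value was 48.5 CPM for each. Gapdh (1.28, 1.12 to 1.48), Pgk1 (1.49, 1.13 to 1.99), Ldha (1.33, 1.12 to 1.59) and Pkm (1.25, 1.03 to 1.52) differed by less. With 1 library on each side there is no test, and the mice cannot be told apart from the diet. Hilpda, a lipid droplet gene on the list of other hypoxia-induced genes, had 23 UMIs in control 3 and 78 in HFHC 4, a ratio of 2.81. Against all 4 controls, 5 genes of that list could be tested in LSEC-like cells. Of these, 3 had positive and 2 negative log2 differences, with a median of 0.20. In HFHC 4 the cells with a UMI of Esm1, a secreted endothelial proteoglycan, had 4 UMIs of Ankrd37 (12.8 CPM) and those without 19 (29.5 CPM), a ratio of 0.44 (0.11 to 1.31). Pkm was 1.31-fold (1.02 to 1.68) and Tpi1 0.55-fold (0.30 to 0.95) as high in the former. Detection of Esm1 goes with depth, the median being 2164 UMIs per cell with it and 1449 without, and its part in these ratios was not tested.

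**Figure D4:**
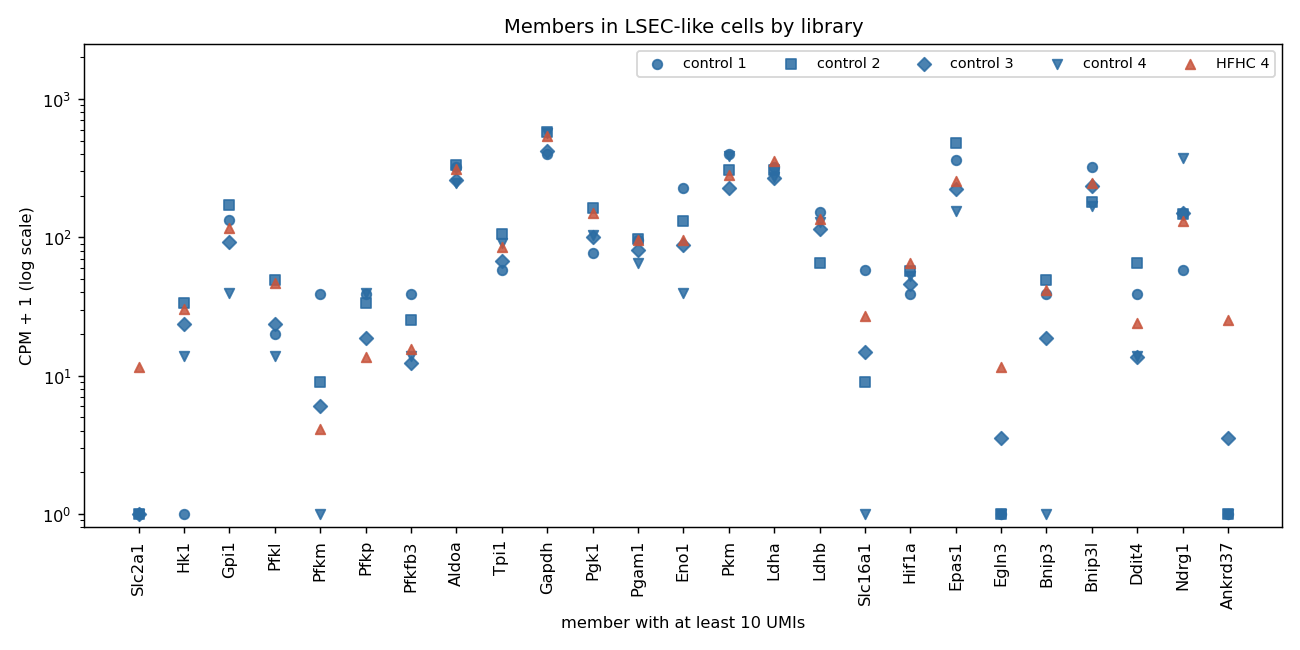
CPM + 1 on a log axis (y) of members with at least 10 UMIs in LSEC-like cells (x), with 1 symbol per library, blue for the 4 controls and red for HFHC 4. HFHC 4 lies above all controls for Slc2a1, Egln3, Ankrd37, Ldha and Hif1a and below all for Pfkp, and Eno1 and Ndrg1 spread widely among the controls.

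In hepatocyte-like barcodes the ratio of HFHC 3 to control 2 was largest for Ldha, at 1.98 (1.86 to 2.11), from 1331 and 3887 UMIs. Gpi1 followed at 1.61 (1.37 to 1.89), then Aldoa at 1.40 (1.17 to 1.67), Pklr at 1.36 (1.08 to 1.71), Gapdh at 1.32 (1.27 to 1.38), Pgam1 at 1.31 (1.16 to 1.48) and Eno1 at 1.29 (1.19 to 1.40). Bnip3 was at 0.85 (0.73 to 0.98) and Aldoc at 0.28 (0.13 to 0.57). Median UMIs per barcode were 1970 in HFHC 3 and 1086 in control 2, and the hepatocyte markers made 1.19% and 2.41% of UMIs. The part of these differences in the ratios was not tested.

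Other classes had 1 library of each diet and few counts. In basophil or mast-like cells Ldha was 2.61-fold (1.53 to 4.72) and Gapdh 2.31-fold (1.13 to 5.19) as high in HFHC 3 as in control 2, the library pair of the hepatocyte-like barcodes. The hepatocyte markers made 0.0719% of UMIs in HFHC 3 and 0.121% in control 2. In mesothelial-like cells Eno1 was 3.08-fold (1.38 to 7.77) as high in HFHC 1 as in control 1, while Pfkp (0.33, 0.10 to 0.90) and Ldhb (0.48, 0.25 to 0.88) were lower. In vascular endothelial-like cells Aldoa was 2.23-fold (1.26 to 4.14) as high in HFHC 4 as in control 2, and Ankrd37 had 1 UMI in control 2 and 10 in HFHC 4 (ratio 7.90, 1.12 to 343).

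**Figure D5:**
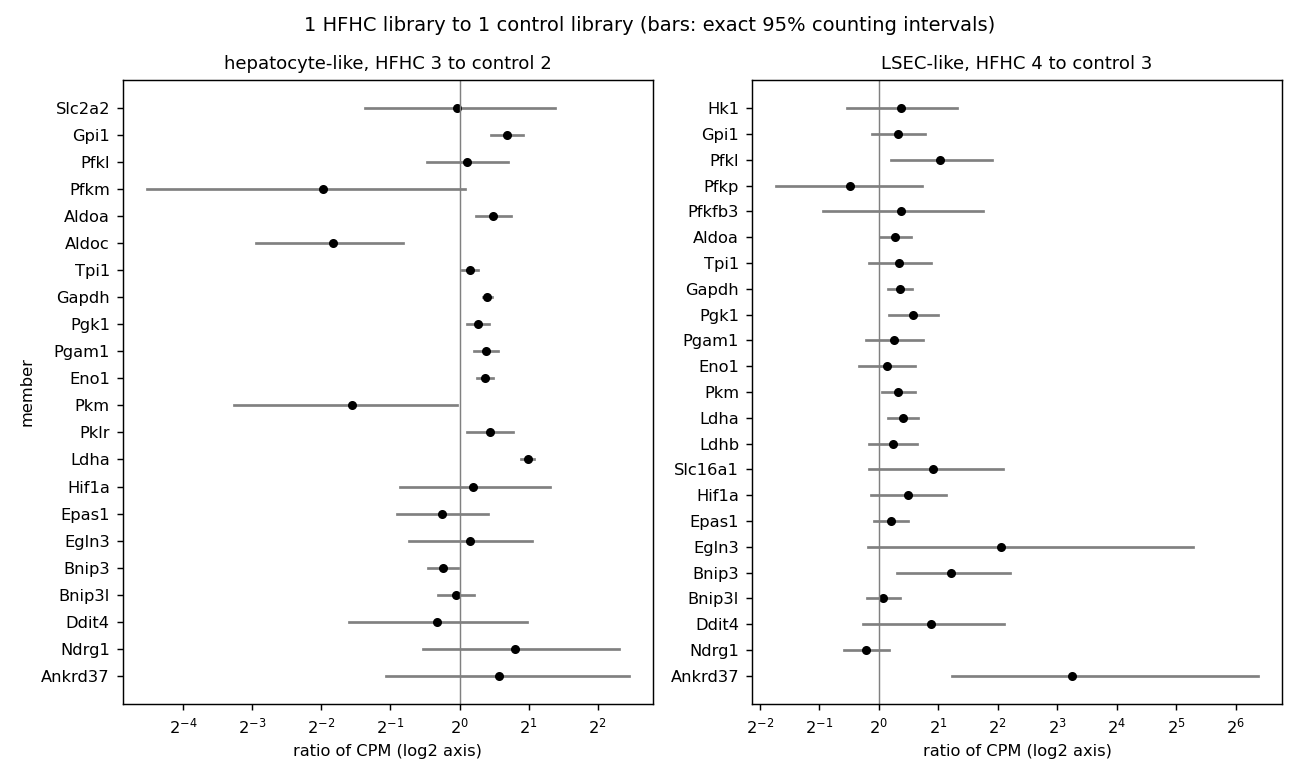
Ratio of CPM (log2 axis) of 1 HFHC to 1 control library for members with at least 10 UMIs in the pair, in hepatocyte-like barcodes (left) and LSEC-like cells (right); bars are exact conditional 95% intervals for counting error only. Ldha is near 2 on the left, and Ankrd37 is at 9.54 on the right.

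Position in the lobule was compared in cells divided by zonation markers chosen after the data were seen. In LSEC-like cells of control 2, control 3 and HFHC 4, 0 of 14 tested members differed between pericentral and periportal cells (edgeR; 0 by DESeq2), where 1.73% of all genes did. At an unadjusted p under 0.05 (edgeR) there were 5 members, and 282 of all 3354 genes. Tpi1 (0.71), Aldoa (0.47), Pkm (0.43) and Gapdh (0.42) had higher and Epas1 (−0.54) lower pericentral log2 values. In hepatocyte-like barcodes of control 2 and HFHC 3, 0 of 15 differed (edgeR, and 0 by DESeq2), where 3.41% of all genes did. At an unadjusted p under 0.05 (edgeR) there were 5 members, and 451 of all 3994 genes. Of those 5 members, Gpi1 (log2 difference −0.51 ± 0.23), Gapdh (−0.45 ± 0.16), Pgk1 (−0.41 ± 0.17) and Eno1 (−0.34 ± 0.16) had lower and Bnip3 (0.50 ± 0.21) higher pericentral values. Their adjusted p (edgeR) was 0.121 to 0.382. In control 2 the pericentral to periportal ratio was 1.55 (1.17 to 2.04) for Bnip3 and 0.62 (0.55 to 0.70) for Gapdh, and in HFHC 3 it was 1.30 (0.94 to 1.77) and 0.87 (0.80 to 0.95). Of 3 gluconeogenesis genes tested, Fbp1 was lower in pericentral barcodes (log2 difference −1.09 ± 0.17). Pck1 (−2.26 ± 0.60, edgeR adjusted p 0.494) and Pcx (0.33 ± 0.30, edgeR adjusted p 0.811) did not pass.

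With all cells summed, 0 of 20 tested members differed between 4 control and 4 HFHC libraries (edgeR, 0 at an unadjusted p under 0.05, 0 by DESeq2), and 0.0% of 6666 genes did. Of those genes, 54 had an unadjusted p under 0.05 (edgeR). Ldha was at 287, 898, 272 and 229 CPM in controls 1 to 4 and at 286, 271, 1912 and 363 CPM in HFHC 1 to 4, so that the libraries with most hepatocyte-like barcodes, control 2 and HFHC 3, were the high ones of both diets. Epas1 was at 123, 82.2, 220 and 73.8 CPM in the controls and at 32.9, 25.2, 29.0 and 253 CPM in the HFHC libraries. The highest values were in control 3 and HFHC 4, with 552 and 547 LSEC-like cells. Control 4, with 38 LSEC-like of 94 cells, had the lowest value of the controls. In such sums fewer cells of a class and less RNA per cell cannot be told apart.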

How the data were processed

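Single-cell RNA libraries (10x Genomics) came from the livers of 8 mice. Per the submitters' processing notes, the authors used Cell Ranger 3.0.1 and Seurat (version not given) on mm10, and the deposited matrix holds raw UMI counts. The members and lists were chosen with earlier results of these data known, as were the gate, its score gap of 0.05, the zone markers and the limits on ratios.

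A cell took the class with the highest marker score where at least 2 markers were detected. Sums of at least 10 cells were tested with edgeR 4.0.16 (R 4.3.3; TMM, filterByExpr, robust quasi-likelihood) over all genes, with Benjamini-Hochberg adjustment. The SE is the absolute log2 fold change divided by the square root of F. With 1 library per diet, ratios carry exact conditional 95% intervals (scipy 1.17.1) and no test. Named members are those that passed and up to 12 with the largest change and at least 20 CPM. Scripts were tested on simulated counts. Doublets were not called. Gene models were GENCODE's. Alternatives included DESeq2 1.42.0 and Leiden clusters (scanpy 1.11.5) made without the members.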

Additional observations from a re-analysis of the deposited data

How the results depend on the processing

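For the named members, 613 values were computed under alternatives, of which 563 kept direction and side of the threshold, 39 lost the call and 11 changed sign. Another 2 log2 values had no adjusted p from DESeq2. The cause of the changes was not tested.

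Of the called members, Ddit4 in vascular endothelial-like cells changed sign, to −0.56 with classes from clusters, where 0 members passed. In the diet comparison of LSEC-like cells, where 0 members passed under all alternatives run, Ndrg1 ran from −0.46 to 0.16 with a library left out, 0.16 being without control 4. Epas1 was at 0.035 with no filter, ran from −0.32 to 0.32 with a library left out (0.02 and 0.32 without control 1 and control 2), and was at 0.57 in the libraries that share few barcodes. Eno1 was at 0.039 with no filter and 1.08 with classes from clusters, ran from −0.34 to 0.27 with a library left out (0.27 and 0.07 without control 1 and control 2), and was at 0.56 in the libraries that share few barcodes.

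Counts of members that passed moved as follows. Between classes the count ran from 6 to 18 when each library was left out, 6 being the value without HFHC 3. Against LSEC-like cells, basophil or mast-like cells gave 5 to 9 calls with a library left out, 5 being without HFHC 4, and 3 with no filter. Mesothelial-like cells gave 2 with DESeq2, 1 with no filter, 7 with barcode copies kept, 0 with classes from clusters and 9 without the library term. Cholangiocyte-like cells gave 5 with copies kept, 1 with classes from clusters, 1 at 5 cells per sum and 7 without the library term, and B-like cells 5 without it. In pericentral hepatocyte-like barcodes 1 member passed with no filter, Gapdh at −0.61. Leaving out control 2 gives no hepatocyte contrast and was not run, nor were all class contrasts at 20 cells per sum. For ratios of 1 HFHC to 1 control library, the other cell filters and class rules gave 131 values for the named members, and all 131 lay within the counting interval of the reported ratio. The sums compared share most cells, some being identical, and the intervals are wide where counts are few. Other tools, normalizations and filters do not apply to a ratio of 2 sums, and leaving out a library leaves none. A wider gap between class scores was chosen after seeing the data.

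Counts over all genes moved too, between classes from 735 to 4020 against 2472 in the main fit. Between diets in LSEC-like cells 11 genes passed, against 63 with DESeq2, 6 with no filter, 0 with classes from clusters, 3 in the libraries that share few barcodes and 8 to 25 with a library left out, 25 being without control 1. Between zones 58 passed in LSEC-like cells (17 with DESeq2, 15 to 41 with a library left out, 15 and 30 being without control 2 and control 3) and 136 in hepatocyte-like barcodes (34 with DESeq2). Against LSEC-like cells 373 passed in mesothelial-like cells (49 to 888 over the alternatives), 105 in cholangiocyte-like (21 to 1081), 204 in vascular endothelial-like (79 to 219), 829 in B-like and 846 in basophil or mast-like cells (546 with DESeq2 in each).

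The replicate numbers did not pair the mice. Correlations of deviations of same-numbered libraries were 0.50, −0.09, −0.42 and 0.16, and with the replicate number as a block 0 members passed in all cells. Leaving out each library gave 0 there too. Sparse members limit most: 15 of 33 had too few counts for the test between classes.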
